A study of Mus musculus with 12 samples.

Results

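The 10 genes examined here encode enzymes that write or remove lysine acetylation on histones. They are the acetyltransferase genes Crebbp, Ep300, Kat2a and Kat2b, the class I deacetylase genes Hdac1, Hdac2 and Hdac3, and the class IIa deacetylase genes Hdac4, Hdac7 and Hdac9. Each gene was represented by a window made of its GENCODE gene body and 20 kb on either side, and every called region that overlapped the window was taken as a whole. The windows held 44 of 31617 H3K27ac regions and 26 of 28047 H3K27me3 regions. All 10 genes had an H3K27ac region, while Kat2b and Hdac7 had no H3K27me3 region, which left 8 genes with both marks. For comparison, 15810 of 21897 protein-coding genes had an H3K27ac region in such a window and 15198 had an H3K27me3 region.

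Acetylation of lysine 27 of histone H3 (H3K27ac) marks active promoters and enhancers, and the paralogous coactivators CBP and p300, encoded by Crebbp and Ep300, are its main writers. GCN5 and PCAF, encoded by Kat2a and Kat2b, are catalytic subunits of SAGA and related coactivator complexes and acetylate mainly lysine 9 of histone H3. The class I enzymes HDAC1 and HDAC2 work in the Sin3, NuRD and CoREST corepressor complexes and HDAC3 works in the NCoR1 corepressor complex, whereas class IIa enzymes have weak catalytic activity of their own, shuttle between nucleus and cytoplasm and bind MEF2 transcription factors. Trimethylation of the same residue (H3K27me3) is laid down by Polycomb repressive complex 2 and marks silenced genes, and a single lysine cannot carry both marks. In the skeletal lineage, HDAC4 is known for restraining chondrocyte hypertrophy, and class IIa enzymes bind and inhibit RUNX2, the master regulator of osteoblasts.

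The marks were profiled by CUT&RUN, in which an antibody directs a nuclease to the mark in permeabilised cells so that the DNA around it is released and sequenced. Mesenchymal stem cells (MSCs), stromal cells able to form bone, fat and cartilage, came from young mice aged 3 to 5 months or old mice aged 18 to 22 months, and all were cultured at 2% oxygen. No strain, genotype, sex or treatment is given in the labels, and the cells of each sample were split between the antibodies. There were 3 replicates per age and mark, 12 libraries in all. The labels do not say that replicates came from separate animals, so the p-values measure only the spread between these samples, which may be technical. In a bulk assay, fewer cells with a mark and less of the mark per cell cannot be told apart.

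The H3K27ac libraries held 2750953 to 5541429 reads, of which 33.4% to 41.4% lay in regions. The H3K27me3 libraries held 3622108 to 9947515 reads, with 53.8% to 66.6% in regions. For H3K27me3 this share was 62.3%, 66.6% and 66.6% in young and 60.8%, 59.6% and 53.8% in old replicates 1 to 3. Every old H3K27me3 library was thus below every young one in the share of reads in regions. Old replicate 2 was the shallowest library for both marks. Of 12 stromal marker genes, 12 had their 5′ end in an H3K27ac region and 1, Nt5e, in an H3K27me3 region. None of the 7 blood, 4 endothelial, 3 muscle and 3 neural marker genes had its 5′ end under H3K27ac, and 4, 3, 3 and 3 of them lay under H3K27me3. Values below are read signal after scaling by relative log expression (RLE), a median-ratio size factor. The signal is reads scaled to library size for a constant length of 0.5 kb, summed over a region or a window, so it grows with the length of a region, and levels were compared between genes only as RPKM, reads scaled to library size and to region length.

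H3K27ac covered a larger share of the window than in the median gene at 9 of the 10 genes, all but Hdac9, and H3K27me3 did not reach their coding start sites. H3K27ac regions covered a median of 60.1% of the window, against 15.7% over all protein-coding genes, and H3K27me3 regions covered a median of 9.17%, against 15.0%. The annotated 5′ end lay in an H3K27ac region for 7 of the 10 genes, compared with 50.0% of all genes, and in an H3K27me3 region for 2, compared with 28.4%. Those 2 were Hdac4 and Hdac9, whose outermost start belongs to a transcript annotated as non-coding or as a target of nonsense-mediated decay. The 22 start sites of protein-coding transcripts were also considered. Several lie close together in the same gene, and no share over all genes was computed. Of the 22, 17 lay under H3K27ac and 0 under H3K27me3. The map of regions shows this arrangement, with H3K27me3 only in the flanks at Crebbp, Ep300, Kat2a and the class I genes, and inside the gene as well at Hdac4 and Hdac9.

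**Figure D1:**
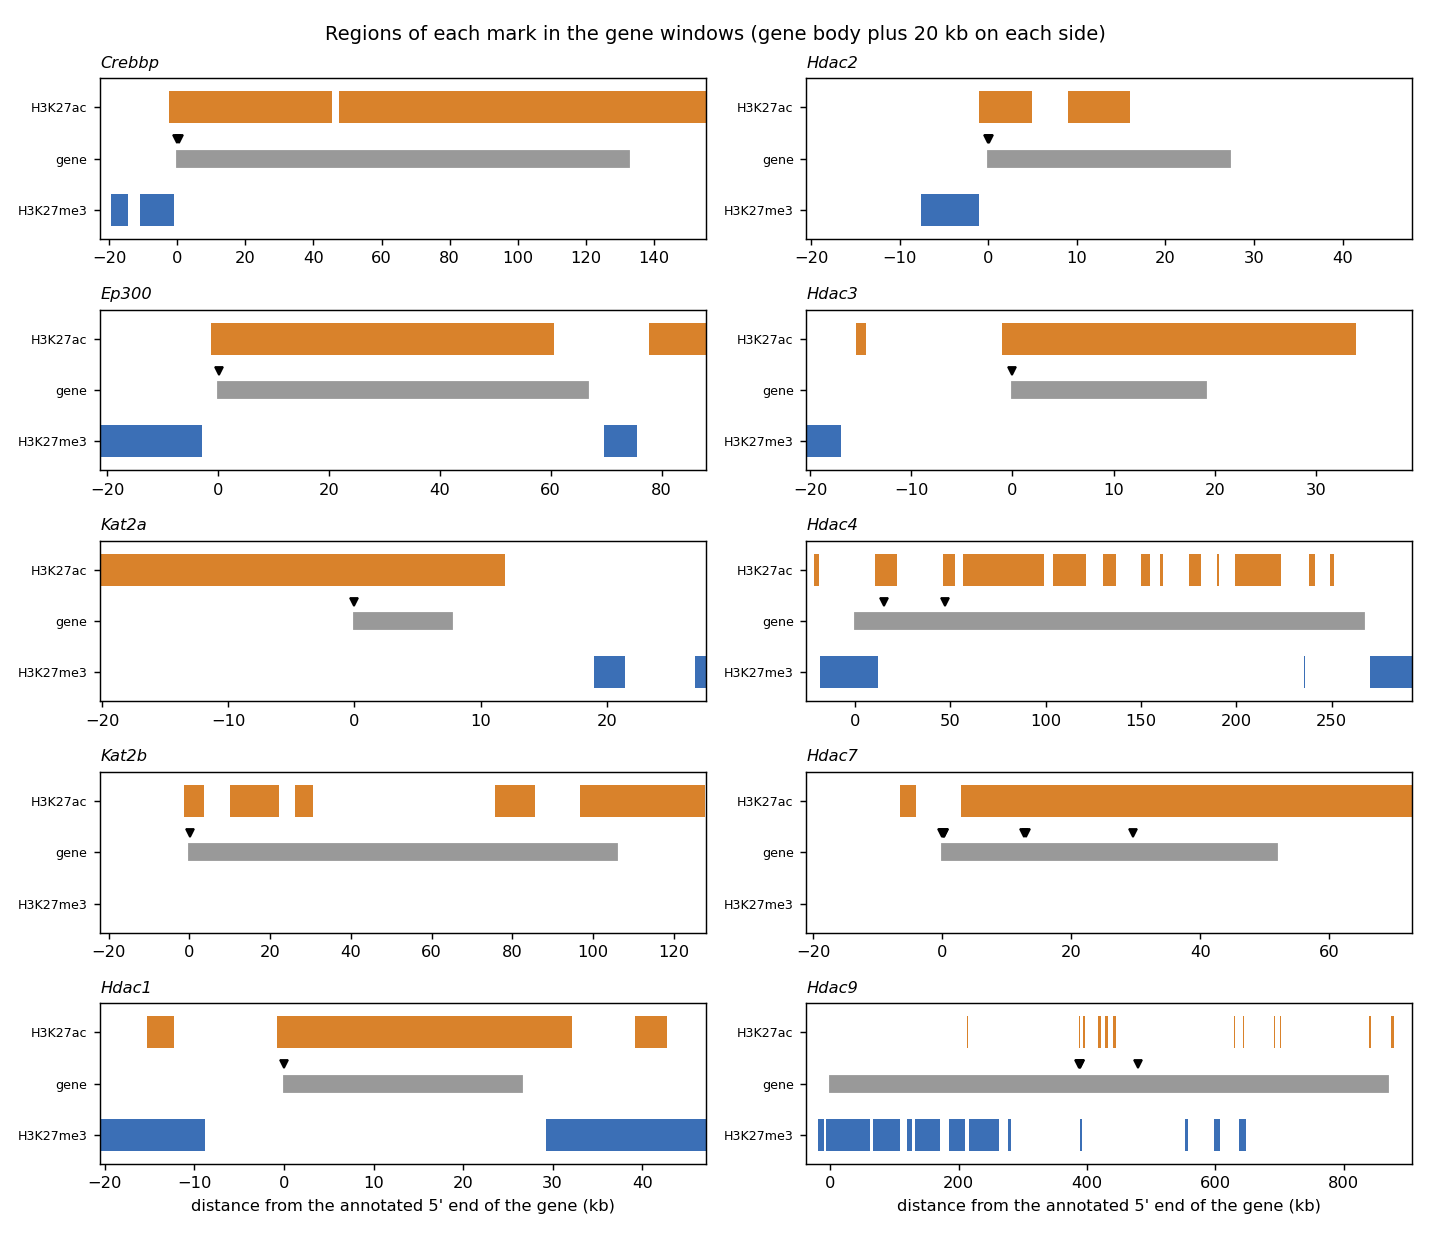
Regions of H3K27ac (orange, top) and H3K27me3 (blue, bottom) in the window of each gene, plotted by distance in kb from the annotated 5′ end in the direction of transcription, with the gene body in grey and coding start sites as black triangles. Regions that run past the window are drawn only to the panel edge, and 17 of the 22 coding start sites lie under H3K27ac and 0 under H3K27me3.

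Among the acetyltransferase genes, Crebbp lay almost wholly under H3K27ac. Its 2 regions covered 88.7% of the window, and the longer one, of 125.5 kb (chr16:4041001-4166500, GRCm38), ran from the gene body past its 3′ end over the start of Trap1 and was longer than 99.6% of H3K27ac regions. The other, chr16:4168501-4216500, covered both coding starts. An H3K27me3 region of 10 kb ended 1.00 kb upstream of the 5′ end and overlapped that H3K27ac region by 1.5 kb. At Ep300 an H3K27ac region of 62 kb (chr15:81584001-81646000) covered the start and most of the gene, and an H3K27me3 region of 53 kb lay 2.85 kb upstream. Kat2a, a gene of only 7.72 kb, sat within a single 39-kb region (chr11:100700501-100739500) that also held the starts of Dhx58, Hspb9 and Rab5c, so its signal cannot be assigned to Kat2a alone. Kat2b had 5 separate H3K27ac regions of 4.5 to 31 kb, the one over the start being chr17:53565501-53570500.

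Within class I, H3K27ac covered the start of all 3 genes and H3K27me3 stayed in the flanks. Hdac1 was embedded in a 33-kb H3K27ac region (chr4:129510501-129543500) that reached the neighbouring Marcksl1, between H3K27me3 regions of 26.5 kb upstream and 24 kb downstream. The marks overlapped at 3 places in the Hdac1 window, by 3, 3 and 3.5 kb. Hdac3 was covered by a 35-kb region (chr18:37921001-37956000) that also held the starts of Diaph1 and Rell2. Hdac2 carried the least H3K27ac of the class, with 19.3% of its window in 2 short regions. At the Hdac2 start, H3K27me3 ended and H3K27ac began at the same 500-bp step, 1.04 kb upstream of the 5′ end.

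The class IIa genes had unlike layouts. Hdac7 had a 75-kb H3K27ac region (chr15:97766501-97841500) at 1.54 ± 0.0560 RPKM in young cells (SD, n = 3), denser than 91.2% of H3K27ac regions. That region started 3.00 kb inside the gene, so its 4 outermost coding starts were not covered while the 3 inner start positions were. Hdac4 carried 13 H3K27ac regions along its 267-kb body, and its coding starts 15.4 and 47.3 kb inside the gene both lay under H3K27ac. The 30.5-kb H3K27me3 region over its outermost, non-coding start ended within the H3K27ac region over the next start, with an overlap of 1.5 kb. Hdac9, by far the longest of the genes at 870 kb, was the only one of the 10 with a larger share of its window under H3K27me3 than under H3K27ac. In its window 13 H3K27me3 regions covered 29.4% and 12 H3K27ac regions covered 3.79%, each of the latter 5 kb or shorter. A 66.5-kb H3K27me3 region (chr12:34857501-34924000) lay over its outermost start, and a 2.5-kb H3K27ac region (chr12:34527501-34530000) lay over the coding starts near 388 kb into the gene. The coding start 479.8 kb into the gene lay under neither mark.

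The RefSeq table used here held 13 promoters of 8 of the genes (all but Hdac1 and Hdac3). The sequences of 4 are given as examples of H3K27ac at a start next to H3K27me3 (Hdac2), H3K27ac at an inner start (Hdac4 and Hdac9) and H3K27me3 over an outermost start (Hdac9). Each is the 250 bases before the start, 5′ to 3′ on the strand of the gene in GRCm38.p6, with CG dinucleotides in capitals. Hdac2 is chr10:36974294-36974543 (plus strand), Hdac4 is chr1:92180342-92180591 (minus strand), Hdac9 inner is chr12:34528890-34529139 (minus strand) and Hdac9 outermost is chr12:34917096-34917345 (minus strand).
Hdac2: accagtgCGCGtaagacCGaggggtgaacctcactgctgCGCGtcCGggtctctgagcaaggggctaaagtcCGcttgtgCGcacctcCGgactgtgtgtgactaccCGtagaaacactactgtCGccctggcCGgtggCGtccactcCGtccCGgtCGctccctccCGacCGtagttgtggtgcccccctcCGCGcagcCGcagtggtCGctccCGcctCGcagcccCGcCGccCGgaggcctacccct
Hdac4: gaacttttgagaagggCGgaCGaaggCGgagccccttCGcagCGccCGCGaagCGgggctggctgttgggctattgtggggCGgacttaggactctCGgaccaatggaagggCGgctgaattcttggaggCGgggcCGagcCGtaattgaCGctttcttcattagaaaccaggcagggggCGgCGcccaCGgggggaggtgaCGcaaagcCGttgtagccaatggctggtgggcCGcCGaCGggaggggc
Hdac9 inner: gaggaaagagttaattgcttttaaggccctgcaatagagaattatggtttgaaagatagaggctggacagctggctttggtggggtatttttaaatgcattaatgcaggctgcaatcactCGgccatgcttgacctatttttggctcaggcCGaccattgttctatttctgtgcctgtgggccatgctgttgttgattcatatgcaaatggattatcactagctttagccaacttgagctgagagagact
Hdac9 outermost: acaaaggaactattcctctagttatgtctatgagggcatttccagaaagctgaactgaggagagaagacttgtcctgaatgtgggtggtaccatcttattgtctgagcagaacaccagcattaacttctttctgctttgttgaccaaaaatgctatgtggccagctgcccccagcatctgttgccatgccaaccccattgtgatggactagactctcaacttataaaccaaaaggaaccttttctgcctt
The first 2 sequences held 27 and 23 CG dinucleotides, and the Hdac9 sequences held 2 and 0.

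Over the full RefSeq window of 300 bases, from 250 before to 50 after the start, the median number of CG dinucleotides in all 32851 promoters was 7. By that measure the Hdac2 and Hdac4 windows, with 36 and 32, were CG-rich and both lay under H3K27ac. The Hdac9 windows had 3 under H3K27ac and 0 under H3K27me3, so both marks were found at a CG-poor Hdac9 start. Motifs were searched on both strands in the same windows. GGGCGG (the GC box, bound by SP-family factors) was in 5 of 13 promoters of these genes and in 35.7% of all promoters. The count was 2 of 13 against 37.4% for CCAAT (bound by NF-Y). It was 3 of 13 against 7.81% for TGANTCA (a loose form of the AP-1 site, with any base at N). CACGTG (the E box, 7.15% of all promoters), TGACGTCA (the cyclic AMP response element, 1.79%) and the MEF2 consensus (3.19%) were found in 0 of 13. The GC box partly counts CG dinucleotides again, and a match only describes the letters in the window.

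The comparison of old with young cells asked whether the marks at these genes differ with the age of the donor, relative to other regions. RLE scaling centres the typical region of a mark near no change, so a shift of the whole mark would not show. At none of the 10 genes did either mark pass the test. The difference nearest to the threshold was higher H3K27me3 in old cells in a flank of Hdac1, and no old H3K27ac sum reached the young range at Hdac9, where old cells were lower, or at Ep300 and Hdac1, where they were higher. The test was limma on log2(RLE-scaled signal + 0.5), fitted to all regions of a mark or to the summed signal per gene. Sums cover all genes with a region of the mark in their window, and shares of summed genes refer to these. Benjamini-Hochberg adjustment was over all regions or all such genes. Of the 44 H3K27ac regions, 0 were called, against 0.0822% of all H3K27ac regions, 2 had an unadjusted p under 0.05 (9.6% of all), and in 2 the age groups did not overlap (14.5% of all). Of the 26 H3K27me3 regions, 0 were called (0.488% of all), 4 had an unadjusted p under 0.05 (13.9%), and in 7 the groups did not overlap (19.1%). edgeR on the recovered reads called 0 of the H3K27ac regions and 1 of the H3K27me3 regions, and DESeq2 called 0 of both. DESeq2 gave no adjusted p for some H3K27ac regions, among them those over the Kat2b and Hdac2 starts, so it could not call these.

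Summed over the windows, 0 of 10 genes were called for H3K27ac (0.531% of all genes), with 3 at an unadjusted p under 0.05 (10.9%) and 3 without overlap of the groups (15.6%). For H3K27me3, 0 of 8 were called (0.395%), 3 had an unadjusted p under 0.05 (14.4%) and 2 had no overlap (19.7%). Both edgeR and DESeq2 called 0 genes of either mark. The direction was uneven for H3K27me3: 20 of 26 regions and 7 of 8 summed windows were higher in old cells, with median log2 fold changes of 0.13 and 0.16, whereas over all regions and all genes 48.6% and 40.2% were higher and the medians were -0.01 and -0.04. Regions of a gene share its neighbourhood and 13 of the 26 belong to Hdac9, so they are not independent. Without RLE scaling the medians over all H3K27me3 regions and gene sums were -0.13 and -0.16, and 16 of 26 regions and 5 of 8 sums of these genes were higher in old cells, while 20 and 7 still lay above the median of all. Leaving out old replicate 2 also gave 16 of 26 and 5 of 8. For H3K27ac, 19 of 44 regions and 6 of 10 summed windows were higher in old cells, with medians of -0.02 and 0.03 against -0.003 and 0.03 over all. Without RLE scaling these counts were 13 and 3, against 33.0% and 27.8% over all.

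**Figure D2:**
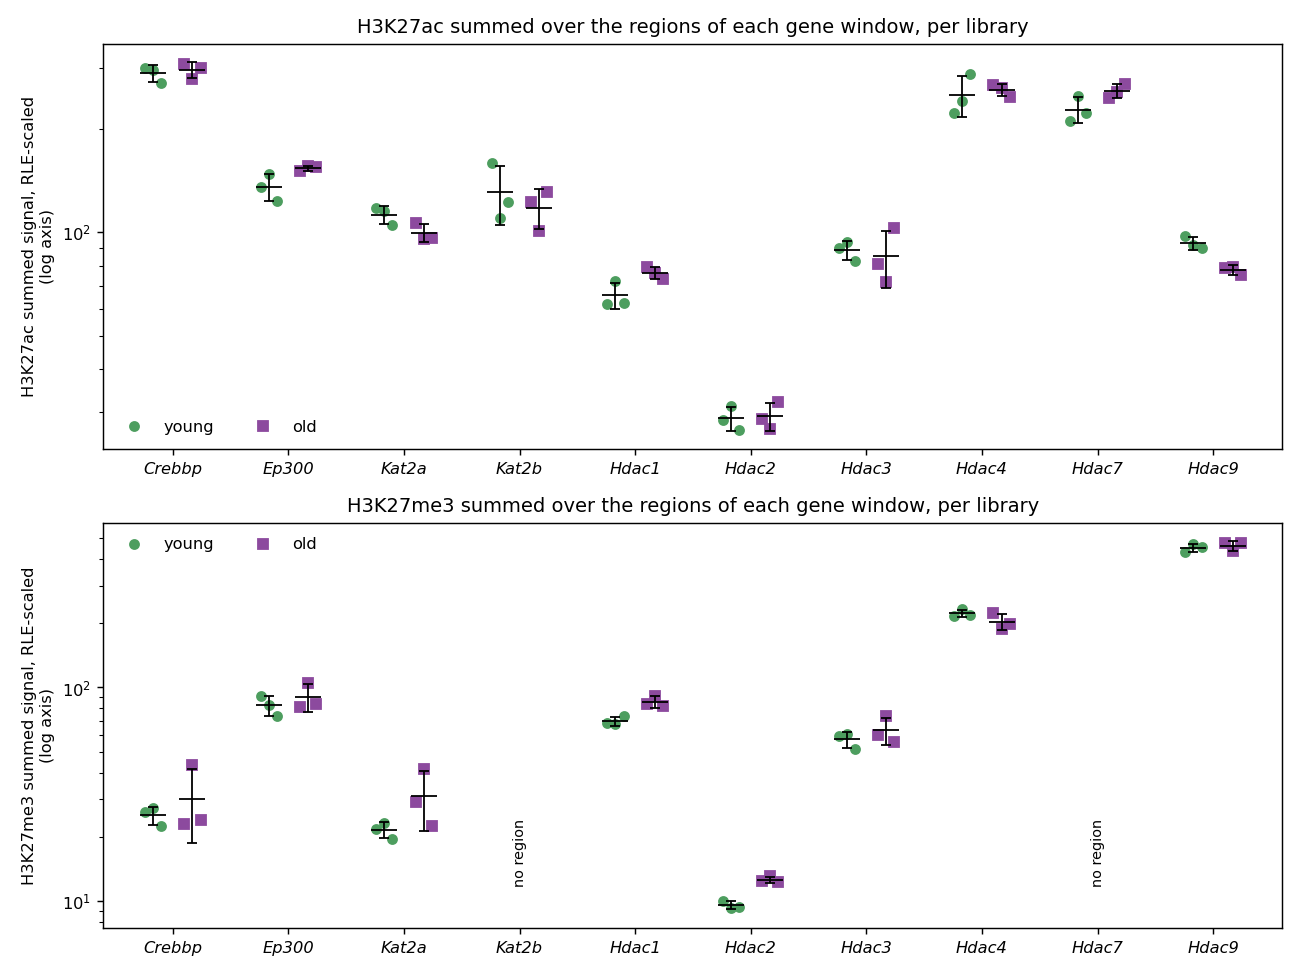
RLE-scaled signal summed over the regions of each gene window (log axis) for H3K27ac (top) and H3K27me3 (bottom), 1 point per library, young as green circles and old as purple squares, with mean ± SD (n = 3) in black. Sums grow with region length, so they are to be compared within a gene, and the age groups do not overlap for H3K27ac at Ep300, Hdac1 and Hdac9 and for H3K27me3 at Hdac1 and Hdac2.

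Of the acetyltransferase genes, Ep300 had the only non-overlapping H3K27ac sums. Its summed H3K27ac was 136, 148 and 123 in young replicates 1 to 3 and 151, 156 and 155 in old replicates 1 to 3. All old libraries were above all young ones, yet the log2 fold change of 0.18 ± 0.09 (SE; adjusted p = 0.416) did not pass. This sum adds a 20-kb region outside the gene, over the start of L3mbtl2 (31.4, 30.0 and 23.7 against 34.3, 35.4 and 28.5). Neither region alone separated the ages. The region over the Ep300 start gave 105, 118 and 99.7 in young and 116, 120.3 and 126 in old cells (0.18 ± 0.09, adjusted p = 0.558). Crebbp, the paralogue of Ep300, gave 302, 297 and 271 in young and 309, 279 and 302 in old cells, with overlapping groups and a log2 fold change of 0.03 ± 0.07 (95% interval -0.11 to 0.17). At the Crebbp start the region values were 88.2, 91.2 and 86.2 against 80.5, 77.9 and 94.3, and the old libraries fell on both sides of the young ones. As folds, the upper ends of the 95% intervals for the sums were 1.13 at Crebbp and 1.28 at Ep300.

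Kat2a and Kat2b gave lower H3K27ac in old cells without passing the test. Kat2a, whose only region is shared with 3 neighbouring starts, had 118, 115 and 105 in young and 106, 95.9 and 96.3 in old cells (log2 fold change -0.18 ± 0.10, adjusted p = 0.503). Only old replicate 1 reached the young range. Summed Kat2b signal was 159, 110.2 and 123 in young and 122, 101 and 131 in old cells (-0.14 ± 0.11, adjusted p = 0.693). Young replicate 1 stood above the rest there, and without it the Kat2b difference was 0.01. Over the Kat2b start the values were 18.0, 11.5 and 14.8 against 9.57, 11.8 and 15.8, again with overlap, from 15 to 55 reads per library. Of the 5 Kat2b regions, 4 were lower in old cells and 1, at the 3′ end and over the start of Sgo1, was higher.

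H3K27me3 at the acetyltransferase genes lay only in the flanks, and old replicate 2 gave the highest value at all 3 genes that had it. The Kat2a flank held 2 regions at and near Zfp385c, with a summed signal of 21.7, 23.3 and 19.6 in young and 29.0, 41.5 and 22.5 in old cells. Only old replicate 3 lay within the young range, and the log2 fold change was 0.47 ± 0.18 (adjusted p = 0.253). Without old replicate 3 it was 0.68 and was called (adjusted p = 0.0214), and without old replicate 2 it was 0.24 (adjusted p = 0.411). In windows of 50 kb it was 0.10 (adjusted p = 0.674). The larger Kat2a flank region, 14 kb long and 26.97 kb from the 5′ end, gave 18.2, 20.3 and 16.0 against 24.0, 35.8 and 18.7. The smaller one, of 2.5 kb over the start of Zfp385c, gave 3.56, 3.02 and 3.66 against 5.02, 5.69 and 3.80, with all old libraries above the young ones but only 10 to 23 reads per library. Upstream of Crebbp the summed values were 26.1, 27.2 and 22.5 against 22.9, 43.2 and 24.1. Old replicate 2 alone was high, and without it the log2 fold change of 0.19 became -0.10. The Ep300 flanks gave 91.5, 82.9 and 73.8 against 80.8, 105 and 84.0 (0.12 ± 0.11, adjusted p = 0.664), with the same library highest.

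In class I, Hdac1 was the one gene with non-overlapping groups for both marks, and both were higher in old cells. Summed H3K27ac was 62.1, 72.1 and 62.5 in young and 79.3, 76.3 and 73.4 in old cells (log2 fold change 0.22 ± 0.11, adjusted p = 0.460), and in windows of 50 kb the log2 fold change was 0.04. The region over its start gave 51.3, 62.3 and 50.7 against 66.2, 64.5 and 61.7 and overlapped slightly, since young replicate 2 exceeded old replicate 3. H3K27me3 summed to 67.9, 67.6 and 73.5 in young and 83.8, 91.6 and 81.8 in old cells (0.30 ± 0.09, adjusted p = 0.208). That difference lay in the downstream region, chr4:129489501-129513500, which covers the starts of Tssk3 and Fam229a. Its values were 31.2, 36.0 and 40.5 in young and 50.2, 58.6 and 44.7 in old cells, from 103 to 230 reads, and every old library was above every young one. The log2 fold change was 0.50 ± 0.13 (adjusted p = 0.0813), the smallest adjusted p among the 26 regions, and edgeR called it (adjusted p = 0.0350). Over the other settings tried, its adjusted p ranged from 0.0501 to 0.354. Upstream, over the start of the T cell kinase gene Lck, the values were 36.7, 31.6 and 33.0 against 33.6, 33.0 and 37.1, with a log2 fold change of 0.03 ± 0.13.

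Hdac2, which encodes the partner of HDAC1 in its complexes, did not pass the test for either mark. Its single H3K27me3 region, just upstream of the promoter printed above, gave 10.1, 9.25 and 9.42 in young and 12.4, 13.1 and 12.4 in old cells. The old libraries were all higher, with 23 to 57 reads each and a log2 fold change of 0.38 ± 0.17 for the sum (adjusted p = 0.325). H3K27ac over the Hdac2 start was 16.0, 17.9 and 17.8 against 16.3, 18.9 and 25.5, where old replicate 3 stood high (0.20 ± 0.20, adjusted p = 0.793). The region inside the gene gave 12.4, 13.3 and 8.88 against 12.4, 7.86 and 6.63, with overlap. Summed over both, the log2 fold change was 0.02 ± 0.16 (95% interval -0.30 to 0.34).

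Hdac3, the catalytic subunit of the NCoR1 complex, spread widely among old libraries. Over its start the H3K27ac values were 87.9, 91.7 and 79.6 in young and 77.7, 68.4 and 100.9 in old cells. Old replicates 2 and 3 were the lowest and highest of all 6, and the log2 fold change of -0.09 ± 0.12 became 0.04 without old replicate 2. The H3K27me3 region 17.0 kb upstream, over the start of Arap3, gave 59.5, 60.6 and 51.5 against 60.0, 73.4 and 55.5 (0.13 ± 0.12, adjusted p = 0.671).

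Among class IIa genes, Hdac9 was lower and Hdac7 higher in H3K27ac in old cells, and neither passed the test. Summed Hdac9 H3K27ac was 97.7, 91.7 and 89.8 in young and 78.9, 79.4 and 74.9 in old cells. All old libraries were below all young ones, with a log2 fold change of -0.26 ± 0.10 (adjusted p = 0.298) and a range of -0.28 to -0.22 when any 1 library was left out. Of its 12 regions, 9 were lower in old cells, with a median of -0.27. The largest difference was at an exonic and intronic region 629 kb into the gene (chr12:34286501-34288000), with 3.59, 6.35 and 4.60 in young and 1.99, 1.57 and 1.53 in old cells. Its groups did not overlap, and the log2 fold change was -1.26 ± 0.44 (adjusted p = 0.313), but each library held only 2 to 14 reads. The other region without overlap, chr12:34224001-34225500, gave 3.27, 4.04 and 3.95 against 1.99, 2.36 and 2.04 from 3 to 12 reads. At the inner coding starts the values were 5.23, 6.35 and 5.59 against 5.18, 7.86 and 5.10, which overlapped (0.05 ± 0.32). The H3K27ac region nearest the outermost start, 214 kb inside the gene, held 1 to 10 reads (1.96, 0.577 and 3.29 in young, 1.59, 3.15 and 2.04 in old cells), and no difference was detectable at that depth.

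H3K27me3 over Hdac9 did not pass the test in any of its 13 regions. The 66.5-kb region over the outermost start, whose CG-free promoter is printed above, gave 169, 181 and 168 in young and 170.05, 138 and 158 in old cells (log2 fold change -0.16 ± 0.09, adjusted p = 0.462), and its groups overlapped. The 47-kb region 217 kb from the 5′ end gave 64.2, 69.6 and 68.8 against 80.8, 73.9 and 79.9, with all old libraries higher (0.21 ± 0.10, adjusted p = 0.351). Of the 13 regions, 9 were higher in old cells and 4 lower, 3 of the latter also inside the gene (-0.04, -0.23 and -0.25). The groups did not overlap in 4 of the 13, each with the old libraries above, against 19.1% of all H3K27me3 regions. The shortest of these 4, of 0.5 kb, held only 1 to 4 reads per library. The sum over the window was 431, 467 and 455 in young and 475, 433 and 473 in old cells, a log2 fold change of 0.03 ± 0.08.

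Hdac7, known for its role in endothelial cells and thymocytes, gave in its 75-kb region 207, 243 and 217 in young and 242, 253 and 266 in old cells. Young replicate 2 overlapped with the old libraries, and the log2 fold change was 0.19 ± 0.07 (adjusted p = 0.360). The region also holds the starts of Rapgef3 and Slc48a1. Hdac4, with 13 H3K27ac regions, summed to 222, 242 and 289 in young and 269, 263 and 248 in old cells (0.06 ± 0.08, 95% interval -0.10 to 0.21). These regions were split into 6 higher and 7 lower in old cells, and the one over the promoter printed above gave 23.5, 26.0 and 29.3 against 29.9, 32.2 and 28.0 (0.20 ± 0.16, adjusted p = 0.749). H3K27me3 over its outermost start was 59.7, 66.6 and 58.6 against 59.4, 71.1 and 54.2, a log2 fold change of -0.01 ± 0.12. Downstream of Hdac4, a 62.5-kb H3K27me3 region gave 155, 164 and 159 against 161, 116 and 141 (-0.21 ± 0.10, adjusted p = 0.386), with old replicate 1 inside the young range.

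**Figure D3:**
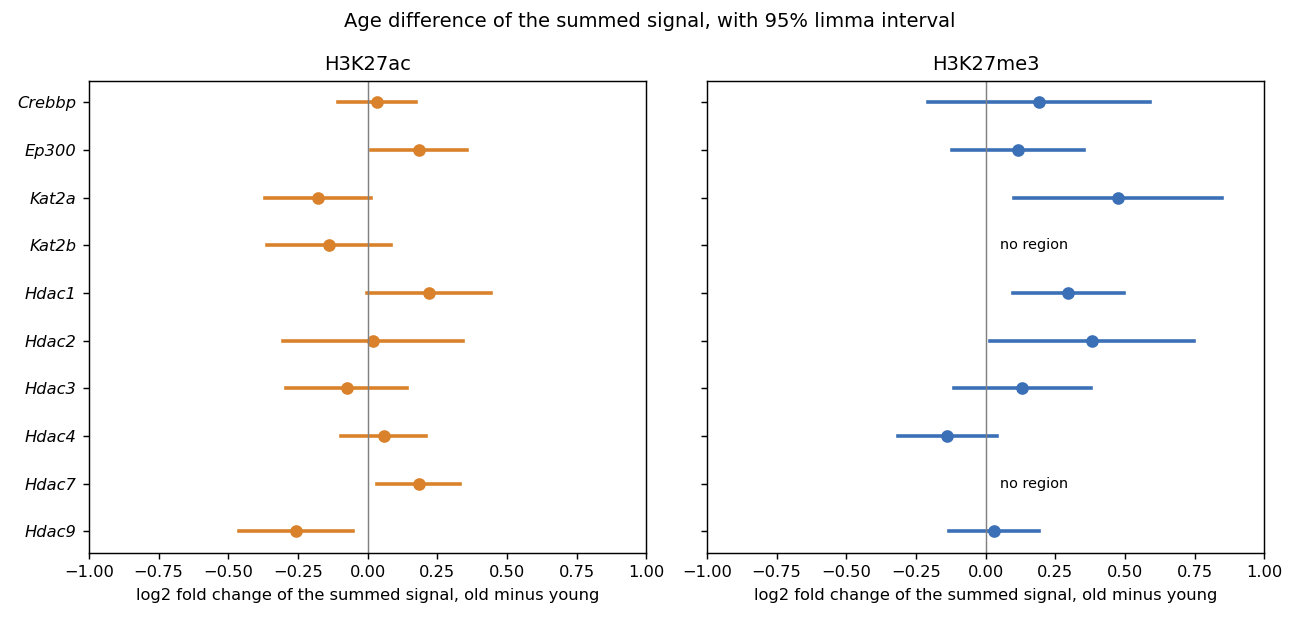
Log2 fold change of the summed signal, old minus young, for each gene and mark, with the 95% limma interval (3 libraries per age). H3K27ac ranges from -0.26 at Hdac9 to 0.22 at Hdac1, H3K27me3 ranges from -0.14 at Hdac4 to 0.47 at Kat2a, and Kat2b and Hdac7 have no H3K27me3 region.

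Levels per length were computed without RLE scaling, over the regions of a window. In young cells H3K27ac ranged from 0.861 ± 0.0617 RPKM at Ep300 to 1.53 ± 0.0549 RPKM at Hdac7 (SD, n = 3). Between them in rising order lay Hdac1 (0.863 ± 0.0257 RPKM), Crebbp (0.874 ± 0.0987 RPKM), Hdac4 (1.02 ± 0.192 RPKM), Kat2b (1.11 ± 0.315 RPKM) and Hdac2 (1.15 ± 0.0702 RPKM). Hdac3 (1.29 ± 0.107 RPKM), Hdac9 (1.41 ± 0.190 RPKM) and Kat2a (1.51 ± 0.174 RPKM) followed. Of neighbours in this order, only Hdac2 and Hdac3 differed by more than the larger of their SDs. Old cells gave 0.823 ± 0.0878 RPKM at Crebbp, the lowest, to 1.61 ± 0.212 RPKM at Hdac7. Long regions thus went with low density at Crebbp and Ep300. Averaged over both ages, these were denser than 4.46% and 7.53% of the 15810 genes with an H3K27ac region, while Hdac7 was denser than 93.7%. H3K27me3 in young cells ranged from 0.682 ± 0.0634 RPKM at Kat2a to 1.24 ± 0.0704 RPKM at Hdac4.

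The balance of the marks was taken per sample as the log2 ratio of summed H3K27ac to summed H3K27me3 in a window. The marks were tabulated and normalised separately, so only the difference between ages within a gene can be read, and no test was run. In old cells the balance was lower at 6 of the 8 genes, whereas it was lower at 40.9% of the 12392 genes with both marks. Among those 6, leaving out 1 sample turned the sign at Crebbp (-0.352 to 0.173), Hdac3 (-0.436 to 0.024) and Hdac1 (-0.147 to 0.015). The sign also turned at Ep300 (-0.0045 to 0.175), where the balance was higher in old cells. The groups did not overlap at 3 of the 8 (18.2% of the 12392 genes), each with old below young, as shown in the plot of the balance.

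At Kat2a the balance was 2.41, 2.28 and 2.39 in young and 1.86, 1.20 and 2.07 in old cells, a difference of -0.65 ± 0.27 (SE) with a lower mean of H3K27ac and a higher mean of H3K27me3. Old replicate 2 was the lowest, and the difference was -0.40 without it and -0.29 in windows of 50 kb. At Hdac2 it was 1.45, 1.70 and 1.45 against 1.17, 1.00 and 1.34, a difference of -0.36 ± 0.13 that came from H3K27me3. Hdac9 gave -2.13, -2.34 and -2.33 against -2.58, -2.44 and -2.65, a difference of -0.29 ± 0.09 that came from H3K27ac. Hdac1, where both marks were higher in old cells, differed by only -0.08 ± 0.11. Crebbp gave 3.51, 3.43 and 3.56 against 3.73, 2.68 and 3.62, so that 2 old libraries were above every young one and old replicate 2 was far below. Without it the Crebbp difference of -0.16 became 0.17. Ep300 (0.07 ± 0.13) and Hdac4 (0.19 ± 0.13) had a higher mean balance in old cells, and at Hdac3 it was lower (-0.21 ± 0.27), with overlapping groups at all 3.

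**Figure D4:**
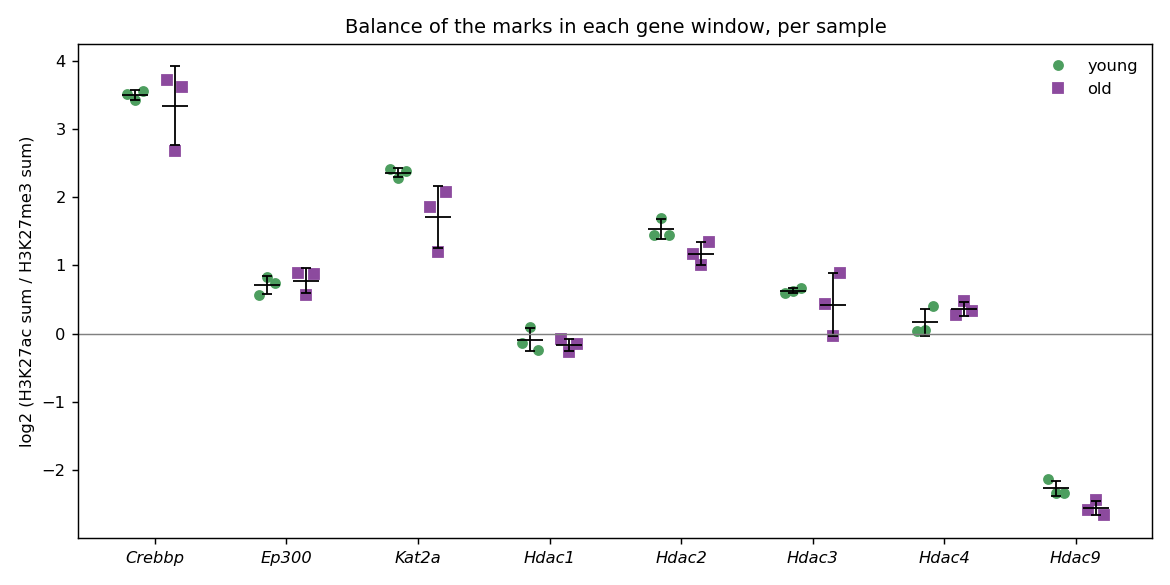
Log2 ratio of summed H3K27ac to summed H3K27me3 for the 8 genes with both marks, 1 point per sample, young as green circles and old as purple squares, with mean ± SD (n = 3) in black. Old samples lie below all young ones at Kat2a, Hdac2 and Hdac9.

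The wider machinery was represented by 41 other genes of acetyltransferase and deacetylase complexes, other deacetylases, bromodomain proteins and MEF2 factors. H3K27ac covered the 5′ end of 37 of them and H3K27me3 that of 1. Of the 40 with an H3K27ac region, 2 were called (against the 0.531% of all genes), and 24 were higher in old cells (58.8% of all genes). The list was chosen with earlier results of these data known, so its counts of calls cannot show an enrichment.

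Mef2c, which encodes a transcription factor bound by class IIa deacetylases, fell from 98.3, 88.3 and 80.3 to 65.8, 40.1 and 53.0 (log2 fold change -0.77 ± 0.13, adjusted p = 0.000269). Every old library was below every young one in the Mef2c sum. This was also so in 5 of the 8 regions that make up the sum, and 0 of the 8 were called singly. Over all H3K27ac regions, the groups did not overlap in 14.5%. The call of the Mef2c sum held when any 1 library was left out. For H3K27me3, 1 of 35 genes was called (0.395% of all genes), and 18 were higher in old cells (40.2% of all genes). Hdac10, a class IIb polyamine deacetylase, fell from 33.6, 31.6 and 25.9 to 20.3, 13.7 and 17.1 (-0.83 ± 0.16, adjusted p = 0.0274). Its only region, chr15:89138501-89150000, lies over the starts of the kinase genes Mapk12 and Mapk11 and outside the Hdac10 gene body. The Hdac10 call was lost without young replicate 1 (adjusted p = 0.156), young replicate 2 (adjusted p = 0.190) or old replicate 2 (adjusted p = 0.0501).

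**Figure D5:**
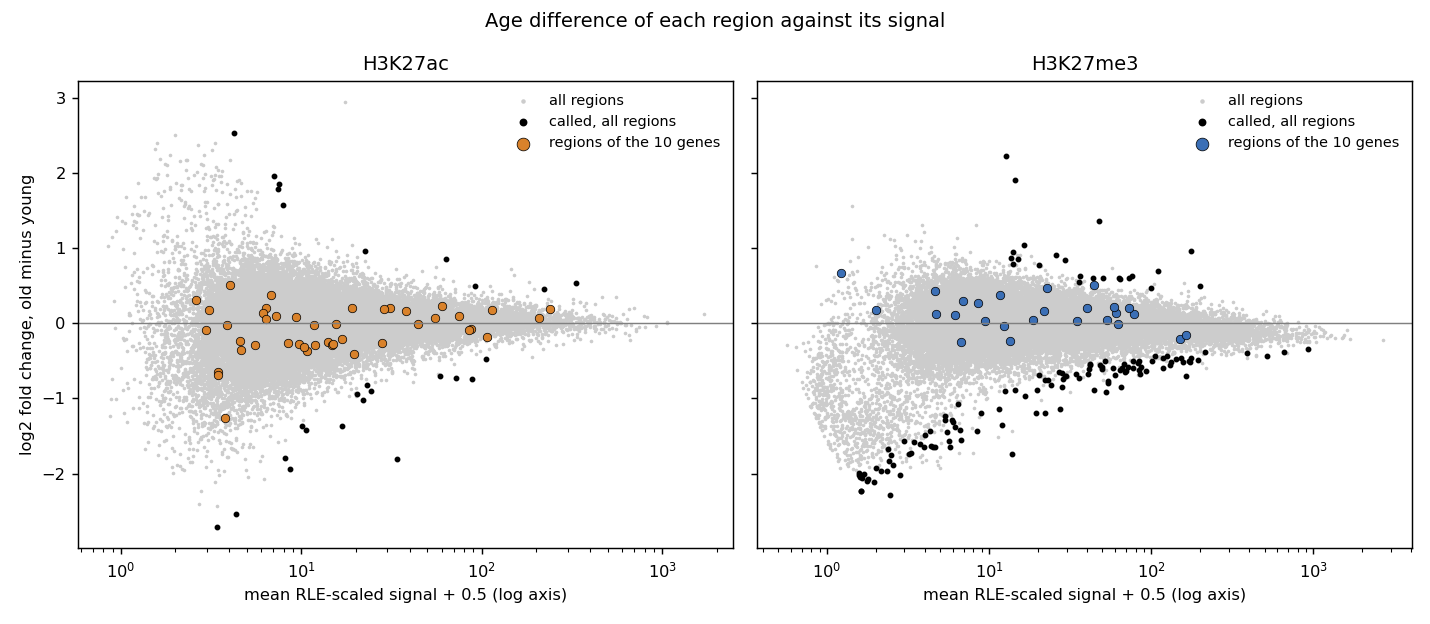
Log2 fold change of every region, old minus young, against its mean RLE-scaled signal plus 0.5 (log axis), for H3K27ac (left) and H3K27me3 (right), with all regions in grey, called regions in black and regions of the 10 genes in colour. The 44 and 26 coloured points lie inside the grey cloud and none coincides with the 26 and 137 called regions.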

How the data were processed

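For each mark the authors deposited 1 table of signal per called region and library, named RPKM but not divided by region length. In every column 100% of values were whole multiples of the signal of 1 read at 0.5 kb (tolerance 0.02 reads), so whole reads and library totals were recovered from the deposited signal, and 0 columns of values were unused. All 44 and 26 regions used carry the authors' state for both ages. The submitters' processing notes name Bowtie2, Picard and mm10 (GRCm38), and the region caller is not given in the sources used here. The publication supplied with the series does not describe these libraries and gave no method for them.

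Signal was scaled by RLE factors within a mark, log2-transformed with a pseudocount of 0.5 and fitted with limma 3.58.1 (R 4.3.3, trend and robust moderation, two-sided). The fit was over all regions, or over sums in GENCODE vM21 gene windows for all protein-coding genes with a region of the mark. The log-scale test planned for RPKM was kept, and with a pseudocount its fold changes at low signal depend on the scale. Alternatives were signal as deposited, TMM scaling, pseudocounts of 0.1 and 2, the lowest 25% left out, no trend or robust moderation, edgeR 4.0.16 quasi-likelihood and DESeq2 1.42.0 on whole reads, a replicate block, each library left out, windows of 5 and 50 kb, and regions cut at the window. On the recovered reads edgeR called 96 H3K27ac and 394 H3K27me3 regions, against 26 and 137 by limma. The fits were tested on simulated data. The members and lists were chosen with earlier results of these data known.

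All 10 genes are accounted for. Values per library are given for the region over the 5′ end or nearest to it, for called regions and for the 5 smallest p-values per mark, and among the 41 further genes only for those called, of which 1 is not reported here. The other regions given with values were chosen after their values were seen. Reads per library limit the precision, and 3 reads correspond to a signal of 0.603 to 2.18. Yeast DNA added as a spike-in was not analysed here.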

Additional observations from a re-analysis of the deposited data

How the results depend on the processing

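Over all regions or genes, the number of calls moved by over 1.5 times under the settings named here, while at the 10 genes it stayed at 0 except for the Hdac1 flank under edgeR (1 H3K27me3 region) and Kat2a without old replicate 3 (1 H3K27me3 sum). H3K27ac region calls, 26 as reported, were 105 as deposited, 14 and 63 with pseudocounts of 0.1 and 2, 0 without trend and robust moderation, 96 by edgeR, 6 by DESeq2 and 2 to 45 leaving out 1 library. H3K27ac gene-sum calls, 84 as reported, were 25 as deposited, 128 with the lowest 25% left out, 0 without moderation, 158 by edgeR, 17 by DESeq2, 21 with regions cut and 16 to 241 leaving out 1 library. H3K27me3 region calls, 137 as reported, were 774 as deposited, 71 with a pseudocount of 0.1, 81 with the lowest 25% left out, 35 without moderation, 394 by edgeR, 76 by DESeq2 and 10 to 336 leaving out 1 library. H3K27me3 gene-sum calls, 60 as reported, were 356 as deposited, 0 without moderation, 24 with regions cut and 16 to 208 leaving out 1 library. The causes were not tested.

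Deviations of same-numbered young and old libraries correlated at 0.07, 0.02 and -0.05 for H3K27ac and 0.02, 0.04 and -0.08 for H3K27me3. For these marks, 3 and 2 of 6 libraries correlated best with their own number. With 3 libraries per age, these values show little pairing by number but cannot exclude it. With a replicate block, 81 H3K27ac and 309 H3K27me3 regions and 177 and 52 gene sums were called, 0 of them at the 10 genes.

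None of the log2 fold changes that turned sign had passed the test. As deposited, the H3K27ac sums of Crebbp, Hdac2 and Hdac4 were -0.087, -0.097 and -0.062, the H3K27me3 sums of Ep300 and Hdac9 were -0.0055 and -0.093, and the upstream Hdac1 H3K27me3 region was -0.087. In windows of 50 kb the H3K27ac sums of Hdac2 and Hdac3 were -0.154 and 0.062, and by edgeR the Hdac9 H3K27ac region 214 kb inside the gene was -0.031. Leaving out 1 library turned H3K27ac at that region (-0.185 to 0.723), at the Hdac3 start (-0.241 to 0.038) and in the sums of Crebbp (-0.015 to 0.076), Kat2b (-0.253 to 0.012), Hdac2 (-0.049 to 0.080), Hdac3 (-0.22 to 0.041) and Hdac4 (-0.025 to 0.163). It turned H3K27me3 at the regions nearest the starts of Crebbp (-0.119 to 0.300), Ep300 (-0.012 to 0.219), Hdac1 (-0.017 to 0.096) and Hdac4 (-0.116 to 0.078) and in the sums of Crebbp (-0.097 to 0.354), Ep300 (-0.00027 to 0.192) and Hdac9 (-0.0026 to 0.073). The Mef2c and Hdac10 calls were lost without moderation (adjusted p = 0.510 and 0.204), and that of Hdac10 with regions cut (adjusted p = 0.0814). The Hdac1 balance difference was -0.27 and -0.26 in windows of 5 and 50 kb. With the lowest 25% left out, 33 of 44 H3K27ac regions, 19 of 26 H3K27me3 regions and 6 of 8 H3K27me3 sums remained to be tested, and in windows of 5 kb 6 genes had an H3K27me3 region. Old replicate 2 had the fewest reads of either mark, so its counting error is largest.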
